A study of Mus musculus with 3 samples.

Results

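Gdpd3, Gng10 and Churc1 are 3 of the 15535 genes listed in deposited single-cell tables of the mouse dentate gyrus. They were chosen by the ratio of their levels between a runner and a control library in microglia, where an earlier look at the same counts put them among the widest gaps, so every runner/control value given here for those cells describes the choice and supports nothing beyond it. In those cells, a ratio of either library to another shares its counts with the choice and is not independent of it. Each gene had UMIs in all 3 libraries. The values below follow the 3 genes through each cell class of each library and into the barcodes that the choice did not use.

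Dissociated dentate gyrus was profiled as 3 droplet single-cell libraries, which count unique molecular identifiers (UMIs), each standing for 1 captured mRNA, per gene and cell barcode. The runner library came from 8-week-old mice that had a running wheel for 12 days, the aged library from 14-month-old mice without a wheel, and the control library from 8-week-old mice in standard cages. The sample labels name the hGFAP-eGFP strain for all groups, a reporter line that marks GFAP-expressing cells, whereas the design text of the series describes WT animals and mentions the reporter when it comes to the aged ones. The tissue was digested with trypsin, no sort is described, and the number of mice behind a library was not given in the sources used here. With 1 library per group there is no test between groups: intervals cover counting error only, and mouse, preparation and group cannot be told apart.

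Gdpd3 encodes a glycerophosphodiester phosphodiesterase of the endoplasmic reticulum with lysophospholipase D activity, which makes lysophosphatidic acid and N-acylethanolamines from lysophospholipids. Gng10 encodes a gamma subunit of heterotrimeric G proteins, which pair with a beta subunit and carry signals from receptors at the cell membrane. Churc1 encodes Churchill, a small zinc-binding protein known from the response to fibroblast growth factor in the chick embryo. Microglia, the resident macrophages of the brain, depend on G protein-coupled receptors such as P2ry12 and Cx3cr1 and on the myeloid transcription factor PU.1.

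The promoters of the genes are shown because the 3 had high values in the same cells and library, and a reader may want to see whether they look alike. RefSeq promoter windows of GRCm38.p6, from 250 bases before to 50 after the gene start, were matched for 3 of 3 genes. All lie on the plus strand: Gdpd3 at chr7:126766164-126766463, Gng10 at chr4:59034906-59035205 and Churc1 at chr12:76765288-76765587. Capitals mark the letters GAGGAA, a core of PU.1 binding, on either strand.
Gdpd3: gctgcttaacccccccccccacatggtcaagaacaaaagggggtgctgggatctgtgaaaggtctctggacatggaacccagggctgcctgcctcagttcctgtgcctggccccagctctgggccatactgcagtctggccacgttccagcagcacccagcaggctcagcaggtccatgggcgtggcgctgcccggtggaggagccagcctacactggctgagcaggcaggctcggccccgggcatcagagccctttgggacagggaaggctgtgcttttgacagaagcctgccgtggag
Gng10: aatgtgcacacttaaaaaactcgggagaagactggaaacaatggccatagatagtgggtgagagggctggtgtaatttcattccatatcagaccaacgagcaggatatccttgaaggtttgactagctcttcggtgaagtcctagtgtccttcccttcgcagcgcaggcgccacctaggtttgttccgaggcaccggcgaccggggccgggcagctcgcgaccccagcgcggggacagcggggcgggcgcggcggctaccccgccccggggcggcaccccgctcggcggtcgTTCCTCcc
Churc1: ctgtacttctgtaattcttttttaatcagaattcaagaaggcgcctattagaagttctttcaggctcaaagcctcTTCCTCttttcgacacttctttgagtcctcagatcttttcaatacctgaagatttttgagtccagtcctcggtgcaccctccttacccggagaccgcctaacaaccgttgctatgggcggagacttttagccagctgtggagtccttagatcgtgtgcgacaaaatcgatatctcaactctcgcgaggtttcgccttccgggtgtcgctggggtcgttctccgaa

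The promoters were not alike in base composition. Gdpd3 had 64.3% G and C but 7 CpG dinucleotides, the median of all 32851 windows. Gng10 had 62.3% G and C with 27 CpG, and Churc1 had 48.0% with 17, against a median of 52.7% G and C over all windows. The letters GAGGAA occurred 1 time in the Gng10 window and 1 time in the Churc1 window, each on the minus strand, and not in the Gdpd3 window. They occurred in 28.3% of all windows. The GC box GGGCGG occurred 3 times in the Gng10 window, 1 time in the Churc1 window and not in that of Gdpd3, and 35.7% of all windows held it. A match of letters is a description and shows no binding.

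In the GENCODE M21 annotation of GRCm38, Gdpd3 (ENSMUSG00000030703.8) spans chr7:126766334-126775649, Gng10 (ENSMUSG00000038607.12) chr4:59035088-59041903 and Churc1 (ENSMUSG00000090258.7) chr12:76765538-76783180. All are protein-coding. Gm20503, a protein-coding gene model that starts inside the neighbouring Dnajc25 and runs to the end of Gng10 on the same strand, shares 946 exonic bases with Gng10, or 72.0% of the exonic bases of Gng10. It matched 485 of the last 500 bases of the longest Gng10 transcript at 100% identity, and it was listed in no table. Fntb, which encodes the beta subunit of protein farnesyltransferase, shares 257 exonic bases with Churc1, and 209 of the last 500 bases of the longest Churc1 transcript matched it at 100%. Fntb itself had 17 UMIs over all barcodes of the runner library, 11 of the aged library and 11 of the control library. No other transcript matched the last 500 bases of Gdpd3, although Gm9967, listed in no table, overlaps the gene on the opposite strand. How the authors' counting treated reads that fit overlapping genes was not given in the sources used here, so the Gng10 and Churc1 counts are uncertain to that extent.

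The tables held 3328 runner, 2421 aged and 2356 control barcodes with 3808360, 2537567 and 2330698 UMIs. Of these, 963 runner, 391 aged and 512 control cells had at least 200 detected genes, under 10% mitochondrially encoded UMIs and no doublet call. Their median depths were 1747, 1409 and 1460 UMIs. The runner and aged libraries shared 2 barcodes among the cells used, and no other pair shared any. Microglia-like cells numbered 353 in runner, 201 in aged and 244 in control, and all 13 microglial markers were listed in every library, with 28195, 14161 and 14724 UMIs. A further 6 classes had at least 10 cells in every library, namely granule neuron-like, neuroblast-like, Cajal-Retzius-like, oligodendrocyte-like, oligodendrocyte precursor-like and astrocyte-like.

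Gdpd3, the lysophospholipase D gene, was abundant in runner and in aged microglia-like cells and close to absent from control ones. It had 66 UMIs in runner microglia-like cells, 26 in aged and 3 in control. Scaled to the total of the class (CPM, UMIs of the gene per 1000000 UMIs of all genes), these were 114 (88.4 to 145), 87.4 (57.1 to 128) and 8.35 (1.72 to 24.4) CPM, with exact Poisson 95% intervals. The control library thus stood low, and the intervals of runner and aged overlapped each other but not that of control. The CPM ratio was 13.7 for runner/control (exact conditional binomial 95% interval 4.49 to 68.1), 10.5 for aged/control (3.21 to 54.0) and 1.31 for runner/aged (0.820 to 2.15). Runner/control and aged/control share the control library, and its 3 UMIs enter both. The gene was picked as one raised in the runner library, but the aged level was nearly as high, and the library that stood apart was control. A choice by a wide runner/control ratio favours a low control level, so that place of control, from 3 UMIs, is in part set by the choice.

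The aged level of Gdpd3 rested on fewer cells than the runner level. Gdpd3 was seen in 61 of 353 runner (17.3%), 17 of 201 aged (8.46%) and 3 of 244 control microglia-like cells (1.23%). In aged, 1 cell held 5 UMIs, whereas no runner cell of this class held more than 2. Without the cell with the most UMIs in each library, an alternative chosen after seeing the data, runner/control was 19.9 and runner/aged 1.56.

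Gng10, the G protein gamma subunit gene, was highest in runner, lower in aged and lowest in control microglia-like cells. The counts were 91, 23 and 12 UMIs, or 158 (127 to 194), 77.3 (49.0 to 116) and 33.4 (17.2 to 58.3) CPM in runner, aged and control. The runner interval lay above both others, and those of aged and control overlapped. The ratio was 4.72 for runner/control (2.58 to 9.47), 2.04 for runner/aged (1.28 to 3.38) and 2.32 for aged/control (1.11 to 5.11). Gng10 was seen in 22.7% of runner, 9.45% of aged and 4.92% of control microglia-like cells.

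Churc1, the Churchill gene, was high in runner microglia-like cells alone among the 3 libraries. It had 201 UMIs there, against 35 in aged and 35 in control, or 348 (302 to 400), 118 (81.9 to 164) and 97.4 (67.8 to 135) CPM. The intervals of aged and control overlapped, and the runner interval lay above both. The ratio was 3.58 for runner/control (2.49 to 5.28), 2.96 for runner/aged (2.06 to 4.37) and 1.21 for aged/control (0.734 to 1.99). Churc1 was seen in 40.8% of runner, 14.9% of aged and 13.1% of control microglia-like cells.

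Over all genes with at least 20 UMIs in the 2 libraries, 4.42% were 2-fold or more higher in runner than in control microglia-like cells. All 3 genes were among these by their choice, and nothing is read from that count. Counted from the highest ratio of the 5108 genes measured, Gdpd3 was at place 6, Gng10 at 17 and Churc1 at 27. For runner/aged, 4.24% of 4972 genes were 2-fold or more higher, Gng10 and Churc1 among them. Their places were 204 for Gng10 and 53 for Churc1, while Gdpd3 was at 1128. For aged/control, 4.11% of 4040 genes were 2-fold or more higher, Gdpd3 and Gng10 among them, at places 5 and 88. Churc1 was at 1236. These aged/control values use the control counts that entered the choice, and the runner/aged values use its runner counts. Neither set is independent of the choice. In these cells each gene had its highest level in runner, then aged, then control, and what differed was the place of aged, near runner for Gdpd3, between runner and control for Gng10, and near control for Churc1.

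**Figure D1:**
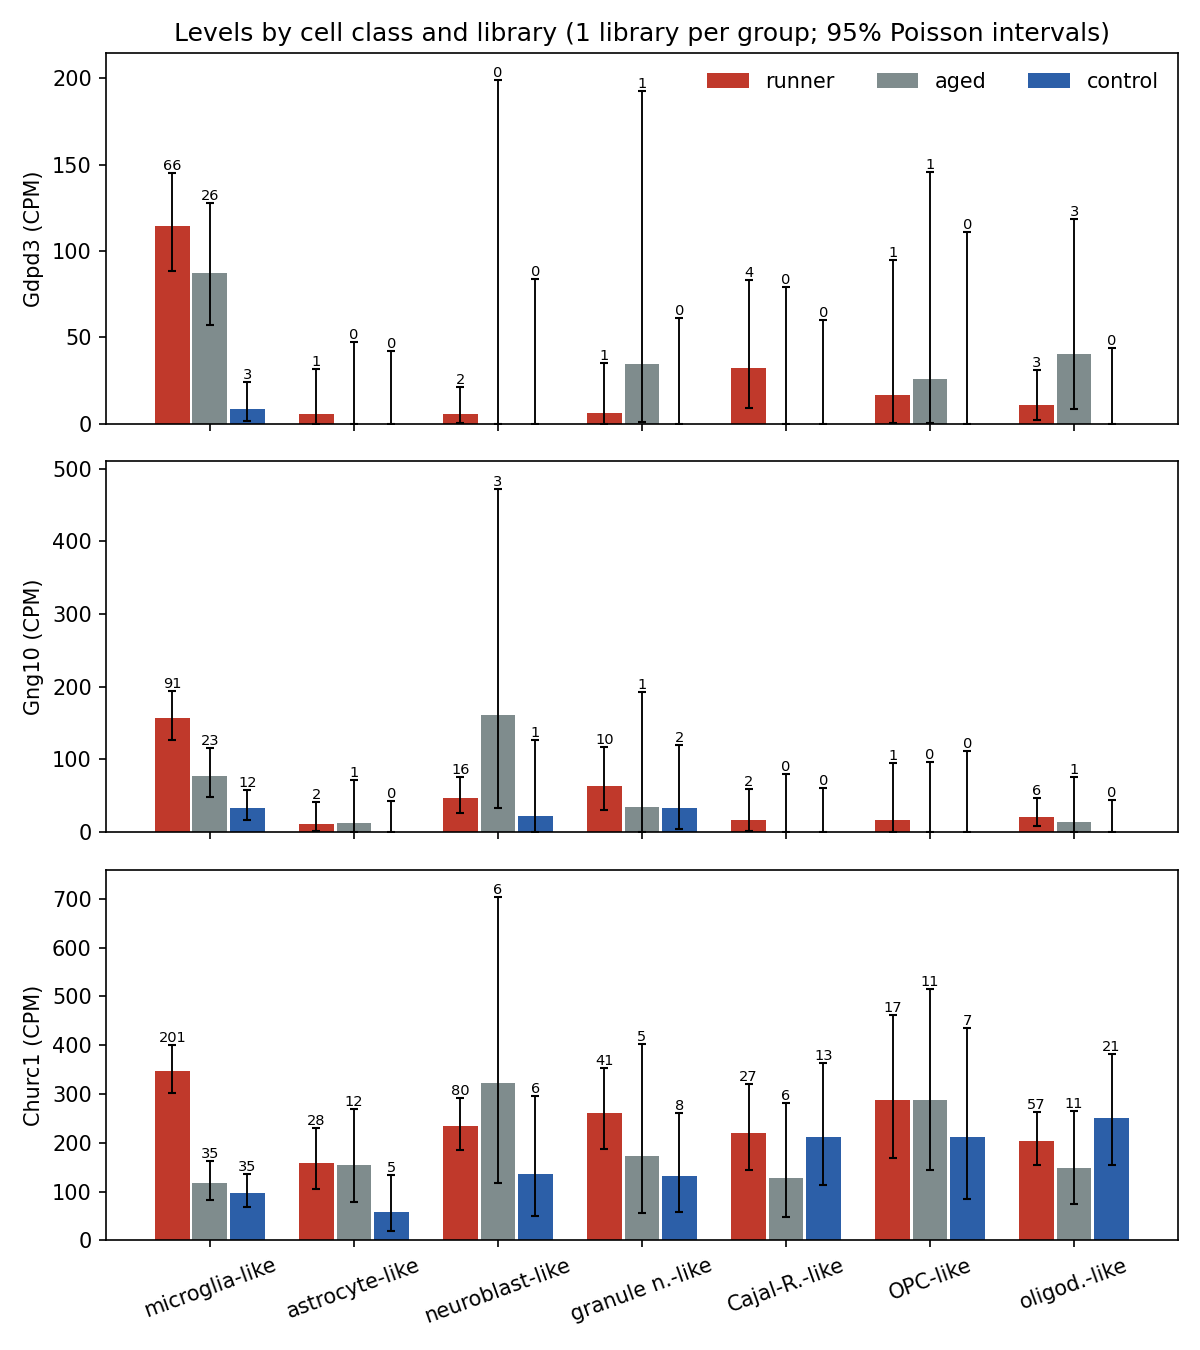
Levels of Gdpd3, Gng10 and Churc1 in CPM, by cell class (x axis) and library (runner, aged and control from left to right in each class). Bars are the level in 1 library, lines are 95% Poisson intervals, and the number above each line is the UMI count; Gdpd3 and Gng10 counts sit mostly in microglia-like cells, while Churc1 has UMIs in every class.

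The gap in Gdpd3 could be read in 1 class, because most of its UMIs lay there. Of all Gdpd3 UMIs in cells used, 66 of 83 in runner (79.5%), 26 of 31 in aged (83.9%) and 3 of 3 in control were in microglia-like cells. Those cells held 32.4%, 49.6% and 46.6% of all UMIs in the 3 libraries. In the 6 other classes Gdpd3 had 1 to 4 UMIs in runner, 0 to 3 in aged and 0 in control. In Cajal-Retzius-like cells, for example, it had 4 UMIs in runner, 0 in aged and 0 in control. With all cells outside the microglia-like class pooled, Gdpd3 had 17, 5 and 0 UMIs, or 14.1, 16.5 and 0 CPM in runner, aged and control. Taking the floor of 3 counts over the control cells for the 0, the counted level was at least 1.94-fold higher in runner and at least 2.27-fold higher in aged than in control. The exact intervals, which also hold the counting error of the runner and aged UMIs, had lower bounds of 1.41 for runner/control and 1.25 for aged/control. At the runner level, 5.81 UMIs would have been counted in those control cells. Of the 17 runner UMIs, 2 lay in perivascular macrophage-like cells and 3 in 1 cycling-like cell. Microglial markers in these 2 runner classes stood at 43.1% and 35.2% of the microglia-like level. The bounds above include these classes and were not computed without them.

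Gng10 had counts in neuronal classes as well. Its UMIs outside the microglia-like class were 40 in runner, 6 in aged and 3 in control, or 33.2, 19.8 and 7.29 CPM. The ratio was 4.56 for runner/control (1.45 to 23.0) and 1.67 for runner/aged (0.706 to 4.83). These pooled ratios also depend on the mix of classes, with 171 neuroblast-like cells in runner, 12 in aged and 32 in control. In these pooled cells 5.23% of genes were 2-fold or more higher in runner than in control, Gng10 among them. Neuroblast-like cells, which are young neurons of the granule lineage, had 16, 3 and 1 UMIs, and their aged level of 162 CPM (33.3 to 472) was above the runner level of 47.0 CPM (26.9 to 76.3), with overlapping intervals. Granule neuron-like cells had 10, 1 and 2 UMIs, and oligodendrocyte-like cells had 6, 1 and 0. No class other than microglia-like reached 20 Gng10 UMIs over 2 libraries, so the gap could not be read class by class.

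Churc1 reached 20 UMIs over runner and control in all 7 classes, and its gap was not the same in them. Runner was above control in 6 of 7 classes. The 6 include microglia-like cells, by which the gene was chosen, and Cajal-Retzius-like cells, at a ratio of 1.04 (0.517 to 2.19). How many of all genes were higher in as many classes was not counted, and nothing is read from the 6. Microglia-like cells, the class of the choice, had the highest ratio, at 3.58, and astrocyte-like cells followed at 2.77 (1.06 to 9.19). That second place was not firm: the astrocyte-like ratio was 2.34 (0.861 to 7.96) with cells called one by one and 1.97 under 20% mitochondrial UMIs, and its range over the alternatives, 1.97 to 2.77, overlapped that of granule neuron-like cells, 1.75 to 2.32. Astrocyte-like cells had 28 runner, 12 aged and 5 control UMIs, or 159, 154 and 57.5 CPM, so runner and aged were level there and control was lower. In that class 7.47% of genes were 2-fold or more higher in runner than in control.

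Neuronal classes had smaller Churc1 ratios whose intervals included 1. Granule neuron-like cells had 41, 5 and 8 UMIs in runner, aged and control, and a runner/control ratio of 1.96 (0.908 to 4.85). Neuroblast-like cells had 80, 6 and 6 UMIs and a ratio of 1.72 (0.759 to 4.84). Cajal-Retzius-like cells, neurons of the marginal zone known for making reelin, had 27, 6 and 13 UMIs and a ratio of 1.04 (0.517 to 2.19). In these 3 classes a gap of the size seen in microglia-like cells was inside the interval for granule neuron-like and neuroblast-like cells and outside it for Cajal-Retzius-like cells.

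In oligodendrocyte-like cells the Churc1 interval lay below 3.58, the ratio in microglia-like cells, the class of the choice. The oligodendrocyte-like class was not limited to mature cells. It included a cluster of 11 runner, 0 aged and 7 control cells. Enpp6 and Fyn, from the marker list of newly formed oligodendrocytes, were among the leading genes of that cluster. Oligodendrocyte-like cells had 57 runner, 11 aged and 21 control Churc1 UMIs, or 203, 149 and 250 CPM, and a runner/control ratio of 0.812 (0.485 to 1.41). This was the 1 class in which runner was below control, and its ratio lay between 0.810 and 1.07 over the other clusterings and filters tried. Oligodendrocyte precursor-like cells had 17, 11 and 7 UMIs and a ratio of 1.37 (0.539 to 3.90), an interval that holds the microglia-like value. Pooled outside the microglia-like class, Churc1 stood at 227 CPM in runner, 172 in aged and 155 in control, with a runner/control ratio of 1.46 (1.11 to 1.95) against 3.58 inside it. The intervals of these 2 ratios did not overlap. Because the gene was chosen by its gap in microglia, nothing is read from the distance between the 2 ratios.

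Against the aged library the Churc1 ratio was lower in the 6 other classes than the 2.96 of microglia-like cells. That value uses the runner counts that entered the choice, so nothing is read from the distance. It was inside the intervals of granule neuron-like and Cajal-Retzius-like cells and above the others. The runner/aged ratio was 1.03 (0.509 to 2.23) in astrocyte-like and 1.37 (0.709 to 2.89) in oligodendrocyte-like cells. Oligodendrocyte precursor-like cells had 288 CPM in both libraries, with an interval of 0.442 to 2.36 for the ratio. It was 1.51 (0.596 to 4.89) in granule neuron-like, 1.71 (0.690 to 5.05) in Cajal-Retzius-like and 0.727 (0.320 to 2.04) in neuroblast-like cells. All 6 of these intervals included 1, and that of microglia-like cells lay above it. In neuroblast-like cells, of which the aged library had 12, the ratio was below 1, and in astrocyte-like and oligodendrocyte precursor-like cells it fell on both sides of 1 over the alternatives, at 0.946 to 1.24 and 0.960 to 1.22.

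The smallest classes added single observations. Perivascular macrophage-like cells, the other brain macrophages, numbered 10 in runner, 0 in aged and 1 in control. The runner cells held 11 Churc1 UMIs, or 852 CPM (425 to 1524), and 2 Gdpd3 UMIs, and 1 of them held 5 of the Churc1 UMIs. The 15 runner cycling-like cells held 9 Churc1, 3 Gng10 and 3 Gdpd3 UMIs, the Gdpd3 UMIs all in 1 cell. Microglial markers were at 43.1% of the microglia-like level in the runner perivascular macrophage-like cells and at 35.2% in the runner cycling-like cells.

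**Figure D2:**
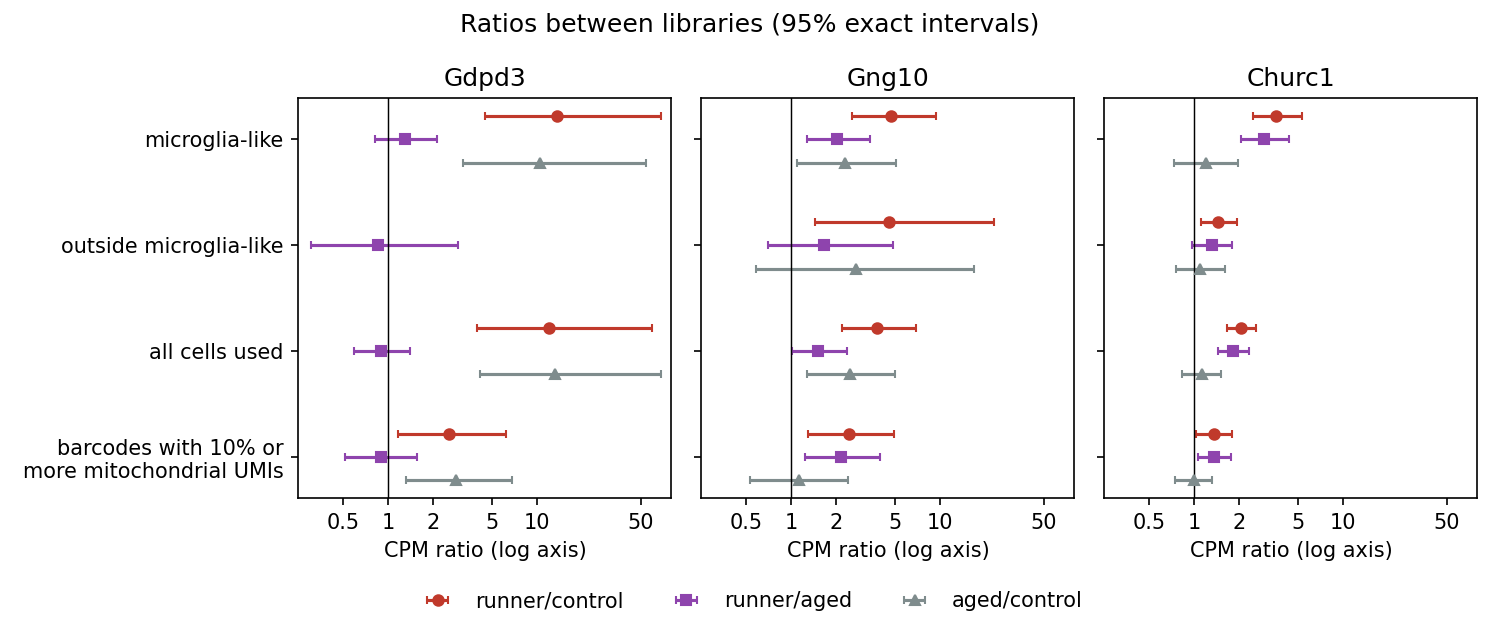
CPM ratios of Gdpd3, Gng10 and Churc1 on a log axis, for runner/control, runner/aged and aged/control, in microglia-like cells, cells outside that class, all cells used, and barcodes with 10% or more mitochondrial UMIs. Points are the ratio of 2 libraries and lines are exact 95% intervals; Gdpd3 has no point against control outside microglia-like cells because control had 0 UMIs there, and its runner/aged ratio stays near 1 in every row.

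Summed over all cells used, Gdpd3 had 83 UMIs in runner, 31 in aged and 3 in control, or 46.6, 51.7 and 3.89 CPM. Its ratio was 12.0 for runner/control (3.96 to 59.3) and 0.902 for runner/aged (0.590 to 1.41). Microglia-like cells made up 36.7% of runner, 51.4% of aged and 47.7% of control cells used. Neuroblast-like cells made up 17.8%, 3.07% and 6.25%. Ratios of sums over classes depend on these shares as well as on the level within a class. Gng10 had 131, 29 and 15 UMIs, with ratios of 3.78 for runner/control (2.21 to 6.95) and 1.52 for runner/aged (1.01 to 2.36). The interval of that runner/aged ratio reached below 1 under 4 alternatives. It was 0.820 to 2.32 under 5% mitochondrial UMIs, 0.997 to 2.33 without mitochondrial and ribosomal protein genes in the total, 0.979 to 2.28 with TMM factors (a scaling by the trimmed mean of log ratios) and 0.749 to 2.51 after thinning to 1000 UMIs a cell. Churc1 had 474, 87 and 99 UMIs, with ratios of 2.07 for runner/control (1.67 to 2.60) and 1.84 for runner/aged (1.46 to 2.33). In these sums 6.03% of genes were 2-fold or more higher in runner than in control, and 7.22% in runner than in aged. For aged/control the share was 3.08%, and the ratios were 13.3 for Gdpd3, 2.48 for Gng10 and 1.13 for Churc1.

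The barcodes with 10% or more mitochondrial UMIs took no part in the choice of the genes, although they come from the same libraries. Gdpd3 had 27 UMIs in runner, 31 in aged and 9 in control among them, and a runner/control ratio of 2.58 (1.18 to 6.23). Gng10 had 40, 19 and 14 UMIs and a ratio of 2.45 (1.31 to 4.88), and Churc1 had 144, 109 and 91 UMIs and a ratio of 1.36 (1.04 to 1.79). Runner was thus above control for each gene there too, by less than in the cells used. The CPM totals there include mitochondrial UMIs, whose median share over all barcodes was 42.9% in runner, 46.3% in aged and 36.6% in control. The ratios depend on these totals. How many of all genes were higher in runner was not counted for these barcodes, and nothing is read from the shared direction of the 3 genes. For Gdpd3 the aged library stood near runner, and for Churc1 near control, with aged/control ratios of 2.86 and 0.993. For Gng10 it stood near control here, with 1.13 for aged/control (0.535 to 2.43) and 2.18 for runner/aged, unlike in microglia-like cells. These barcodes had median depths of 771, 834 and 728 UMIs, and their cell classes were not called. Over all classes, the Gdpd3 runner/control ratio was 5.90 with no mitochondrial filter, 9.36 in cells under 20% and 21.8 in cells under 5%, there from 74 runner UMIs and 1 control UMI.

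The 3 microglia-like clusters of ordinary depth were looked at one by one, because their shares differed between libraries. Cluster 0 had 155 runner, 76 aged and 83 control cells, cluster 1 had 129, 50 and 78, and cluster 6 had 44, 53 and 37. Gdpd3 in runner stood at 115 CPM in cluster 0 and 141 in cluster 1, against 59.7 in cluster 6, with 4 UMIs. In aged it stood at 42.4, 72.6 and 189 CPM, so that 15 of its 26 UMIs fell in cluster 6, the cluster with the lowest runner level. The runner/aged ratio was 2.70 (1.02 to 9.01) in cluster 0, 1.95 (0.810 to 5.66) in cluster 1 and 0.316 (0.0764 to 0.993) in cluster 6. The aged cell with 5 UMIs lay in cluster 6. Without the cell with the most Gdpd3 UMIs in each library, an alternative chosen after seeing the data, the ratio was 0.460 (0.105 to 1.60) in cluster 6 and 2.51 (0.939 to 8.43) in cluster 0, so that both intervals included 1. In control each of these clusters held 1 Gdpd3 UMI.

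Gng10 and Churc1 were highest in runner in each of these clusters. Gng10 in runner, aged and control had 141, 67.9 and 34.2 CPM in cluster 0, 170, 133 and 28.0 in cluster 1, and 239, 37.7 and 37.6 in cluster 6. Churc1 had 494, 187 and 171 CPM in cluster 0, 271, 109 and 91.1 in cluster 1, and 224, 50.3 and 18.8 in cluster 6, the last from a single control UMI. The 2 shallow clusters, with median depths of 774.5 and 785 UMIs, held 25 runner, 22 aged and 46 control cells. Without them, an alternative chosen after seeing the data, runner/control was 12.5 for Gdpd3, 5.20 for Gng10 and 3.30 for Churc1.

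**Figure D3:**
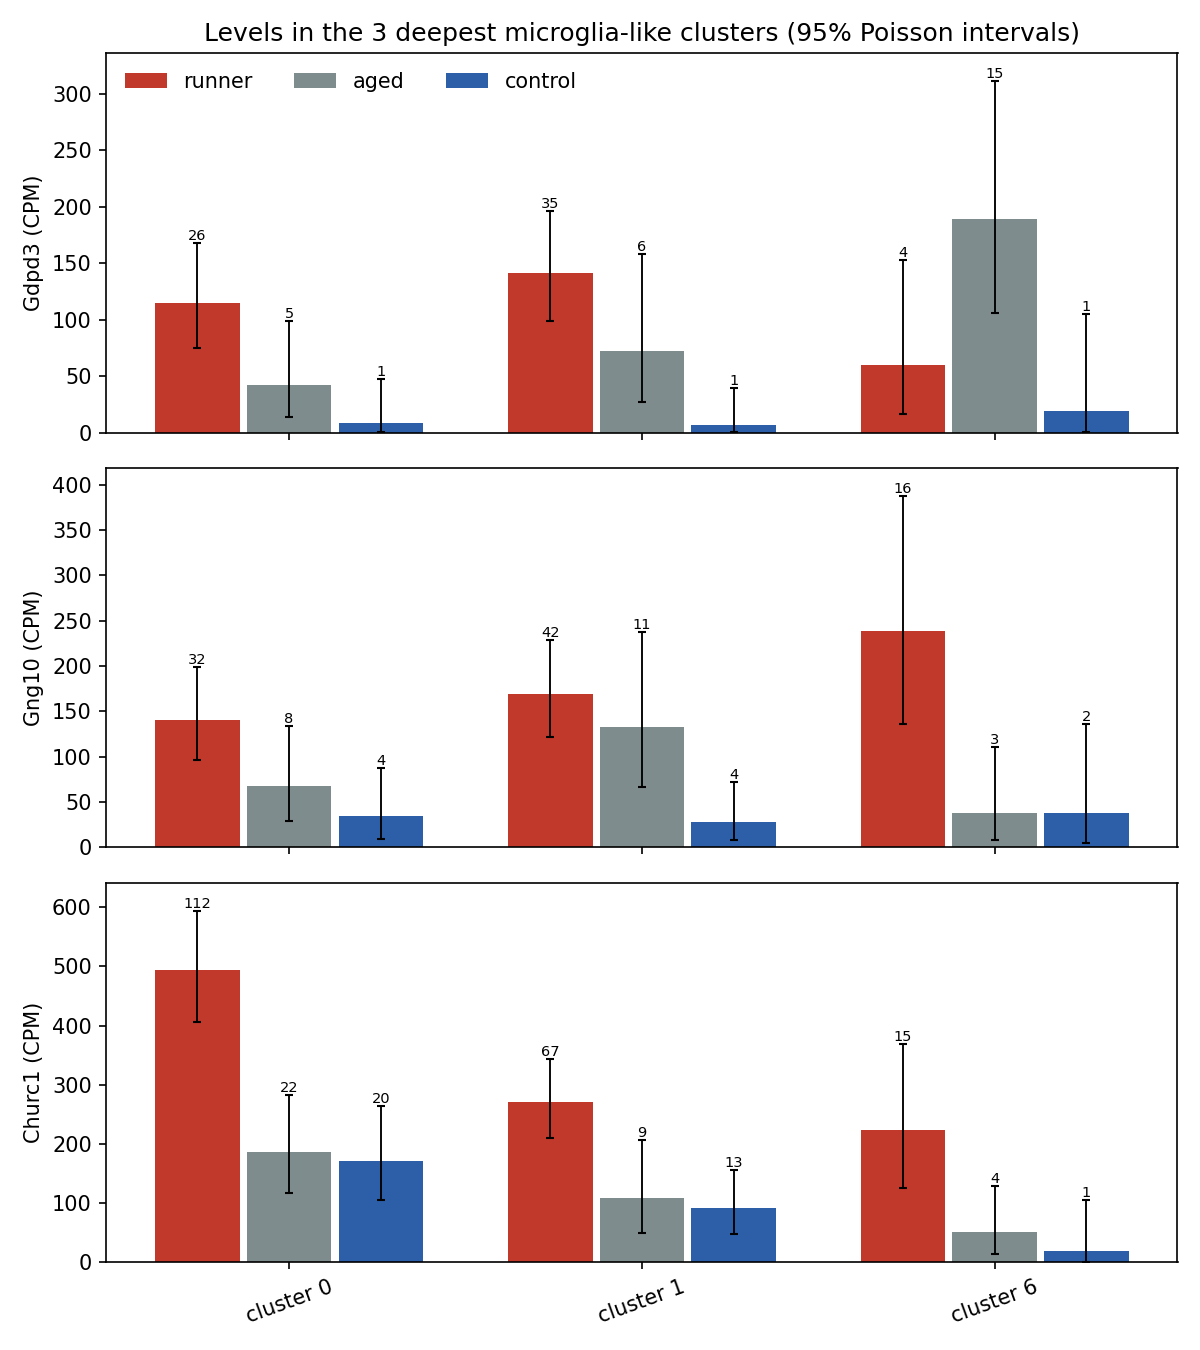
Levels of Gdpd3, Gng10 and Churc1 in CPM in the 3 deepest microglia-like clusters, with runner, aged and control from left to right in each cluster. Bars are 1 library each, lines are 95% Poisson intervals and numbers are UMI counts; Gdpd3 in aged is highest in cluster 6, while Gng10 and Churc1 are highest in runner in each cluster.

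Cells in which Gdpd3 or Gng10 was seen were deeper than the rest. In runner microglia-like cells the median depth was 1838 UMIs with Gdpd3 and 1521 without, 1814 with Gng10 and 1498 without, but 1579 with Churc1 and 1584 without. For Churc1 the libraries differed in this, with 1847 with and 1264 without in aged, and 1479.5 and 1477 in control. Each microglia-like cell was therefore thinned to 1000 UMIs, which left 302 runner, 134 aged and 195 control cells and left out 51, 67 and 49. After thinning, Gdpd3 was seen in 9.93% of runner, 7.46% of aged and 0.513% of control cells, the last being 1 cell. Gng10 was seen in 16.6%, 7.46% and 2.56%, and Churc1 in 29.1%, 8.96% and 11.8%. The order of the libraries was kept for Gdpd3 and Gng10, and for Churc1 aged and control changed places with overlapping intervals. In astrocyte-like cells, with median depths of 1304, 1226 and 1302 UMIs, Gdpd3 was seen in 0.806% of runner cells and in no aged or control cell, and Gng10 in 1.61%, 1.92% and 0%. The 0 of 64 control cells allows a share of cells with a UMI of up to 4.69% by the floor of 3 counts and of up to 5.60% by the exact Clopper-Pearson interval.

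**Figure D4:**
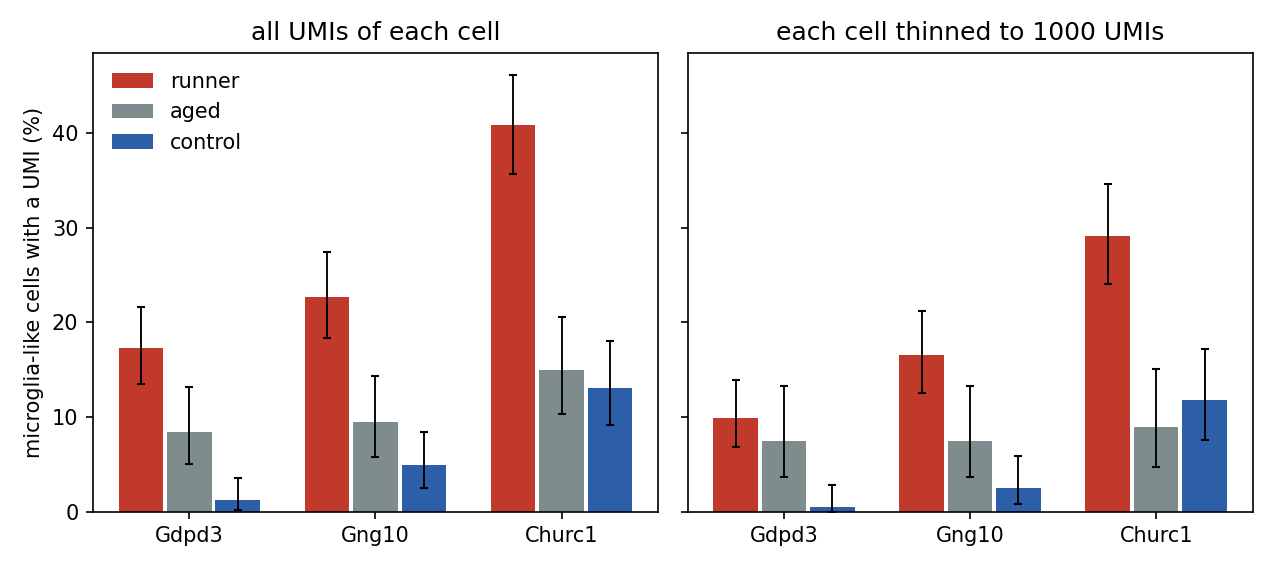
Share of microglia-like cells with at least 1 UMI of each gene, in percent, for runner, aged and control, from all UMIs (left) and after thinning each cell to 1000 UMIs (right). Bars are 1 library each and lines are exact Clopper-Pearson 95% intervals; the runner bar is the tallest for each gene in both panels, and the aged and runner intervals of Gdpd3 overlap after thinning.

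Within runner microglia-like cells, pairs of the 3 genes met in about as many cells as their shares give, with some excess for Gdpd3 with Gng10. Gdpd3 and Gng10 shared 20 of 353 cells where the product of their shares gives 13.8. Gdpd3 and Churc1 shared 22 cells where it gives 24.9, and Gng10 and Churc1 shared 31 where it gives 32.6. None of the 3 was seen in 134 runner, 144 aged and 200 control cells. A deeper cell is more likely to show both genes of a pair, so these counts are a description only.

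Transcripts of other cell types were present in the class, in runner mostly in a few cells, and are given beside these values. Haemoglobin genes had 5183 UMIs in runner, 50 in aged and 79 in control microglia-like cells, and Ttr, a choroid plexus gene, had 3965, 0 and 795. Microglia-like cells with under 5 microglial marker UMIs numbered 7 in runner, 2 in aged and 1 in control. Cells with more than 50 haemoglobin or Ttr UMIs numbered 7 in runner, 0 in aged and 1 in control. These runner cells held 5037 of the haemoglobin and 3953 of the Ttr UMIs, and the control cell held 793 of the Ttr UMIs. The 7 runner cells rich in haemoglobin or Ttr held 0 Gdpd3, 1 Gng10 and 7 Churc1 UMIs. In cells with no haemoglobin UMI, an alternative chosen after seeing the data, runner/control was 12.9 for Gdpd3, 4.21 for Gng10 and 2.89 for Churc1, and runner/aged was 1.36, 1.62 and 2.20. The interval of the Gng10 runner/aged ratio was 0.953 to 2.83 there and included 1, which it did not over all microglia-like cells. Outside the microglia-like class, microglial markers were at 2.57% of their microglia-like level in runner, 1.58% in aged and 1.89% in control. Gdpd3 was at 12.4%, 18.9% and 0% of its own microglia-like level there, Gng10 at 21.1%, 25.7% and 21.8%, and Churc1 at 65.1%, 146% and 160%.

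Between runner and control, most measured relatives of the 3 genes were within 2-fold of each other. Among 12 genes for G protein gamma subunits, 6 were measured in microglia-like cells with at least 20 UMIs over runner and control. Gng10 was the 1 gene that was 2-fold or more higher in runner, and Gng13, at 16 runner, 5 aged and 23 control UMIs and a runner/control ratio of 0.433 (0.214 to 0.856), the 1 that was 2-fold or more lower. Gng5, a gamma subunit gene with 287, 120 and 186 UMIs, had a ratio of 0.961 (0.796 to 1.16), and Gngt2 had 0.804 (0.638 to 1.01). Gng2 had 0.818 and Gng12 1.36. The median log2 ratio of the 6 was -0.18, against 0.04 over all 5108 genes. In the same cells 4.42% of all genes were 2-fold or more higher and 2.04% lower in runner, and Gng10 itself was chosen for its gap. For aged/control, 3 of the 6 gamma subunit genes had a 2-fold gap, against 4.11% of all genes higher and 3.00% lower. Gng10 and Gng12 were higher in aged, Gng12 at 2.09 (0.944 to 4.85), and Gng13 was lower, at 0.263 (0.0780 to 0.706). None of the 2 measured beta subunit genes of 5, and none of the 7 measured alpha subunit genes of 13, was 2-fold or more higher or lower in runner than in control. Gnaq, an alpha subunit gene that couples receptors to phospholipase C beta, stood apart in aged, with 13 runner, 25 aged and 11 control UMIs and ratios of 0.268 for runner/aged (0.126 to 0.544) and 2.75 for aged/control (1.30 to 6.18). For runner/aged, 3.04% of all genes were 2-fold or more lower. For runner/control, Gnb2, a beta subunit gene, had a ratio of 0.868 and Gnai2, an inhibitory alpha subunit gene, 0.903.

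Of 7 glycerophosphodiester phosphodiesterase genes, 3 were measured in microglia-like cells, and Gdpd3, chosen for its gap, was the 1 with a 2-fold gap between runner and control. The shares over all genes, 4.42% higher and 2.04% lower, are the background of this and the next 3 counts. Gde1, which has glycerophosphoinositol phosphodiesterase activity, had 61 runner, 21 aged and 36 control UMIs and a runner/control ratio of 1.06 (0.688 to 1.64). Gpcpd1, which splits glycerophosphocholine, had 35, 19 and 24 UMIs and a ratio of 0.908. Among 21 genes of N-acylethanolamine and lysophosphatidic acid metabolism and signalling, 9 were measured. The 1 with a gap of 2-fold or more was Enpp2, the gene of the lysophosphatidic acid-producing enzyme autotaxin and a choroid plexus marker, with 92 runner, 0 aged and 28 control UMIs and a ratio of 2.05 (1.33 to 3.25). Ttr, also a choroid plexus gene, had 3965, 0 and 795 UMIs in microglia-like cells, most of them in a few cells. Lpar6, a lysophosphatidic acid receptor gene, had 100, 53 and 36 UMIs and a ratio of 1.73 (1.17 to 2.61). Of 14 genes of fibroblast growth factor response, 6 were measured and none was 2-fold or more higher or lower in runner. Among 19 genes induced by dissociation, 18 were measured and none was 2-fold or more higher in runner than in control.

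No neighbour with 20 or more UMIs in microglia-like cells had a 2-fold gap there. Mapk3, which ends 514 bases before Gdpd3 on the same strand and encodes the kinase ERK1, had 49 runner, 19 aged and 26 control UMIs in microglia-like cells and a runner/control ratio of 1.17 (0.715 to 1.97). Ypel3, 1305 bases after Gdpd3, had 209, 107 and 149 UMIs and a ratio of 0.873 (0.704 to 1.09). Dnajc25, a neighbour of Gng10, had 9 UMIs over all runner barcodes and 10 over all control barcodes and was not listed for aged. Rab15, a neighbour of Churc1, had 111, 104 and 63 UMIs over all barcodes, and 2 or fewer in microglia-like cells of each library.

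Genes with a like pattern were ranked by their smallest log2 ratio of runner to either other library, over the classes in which they had at least 20 UMIs, for 2223 genes measured in at least 3 classes. Gdpd3 and Gng10 were measured in 1 class and could not be ranked. Churc1 was at place 877, with a smallest log2 ratio of -0.57, from neuroblast-like cells against aged. The ratio was above 0 on the log2 scale in every class for 64 genes and below 0 for 43. The first 10 were Gm1821, Gm9800, 4930526A20Rik, Rps27rt, Msmo1, Tmem176a, Lsm14a, Msrb1, Dynlt3 and Tagln3. The first 4 of these each had a near copy among expressed genes: over the last 500 bases or fewer of their longest transcripts, Gm1821 matched Ubb at 97.4%, Gm9800 matched Ptma at 99.1%, 4930526A20Rik matched Tsen34 at 98.6% and Rps27rt matched Rps27 at 100%. None of the other 6 had a match of 90% or more over at least 200 bases.

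The near copies had other ratios than the genes that resemble them. Gm1821, annotated as a transcribed processed pseudogene, had 2083 runner, 357 aged and 325 control UMIs over all cells used, with ratios of 2.77 for runner/control (2.47 to 3.13) and 1.97 for runner/aged. Ubb, the polyubiquitin gene, had 2273, 667 and 1757 UMIs, with ratios of 0.560 for runner/control and 1.15 for runner/aged. Rps27rt, a retrotransposed copy of a ribosomal protein gene, had ratios of 2.85 and 1.68, and Rps27 had 0.822 and 0.960. Gm9800 had 3.15 and 2.29, and Ptma was also higher in runner, at 1.30 (1.23 to 1.38) and 1.26 (1.19 to 1.35). For 4930526A20Rik the ratios were 3.14 and 2.58. For Tsen34 they were 0.959 (0.752 to 1.23) and 1.26 (0.939 to 1.71), with intervals that included 1. Unlike Churc1, Gm1821 had a runner/control ratio above 1 in all 7 classes, and so did Rps27rt. Whether the sharing of sequence between genes bears on the runner values of these genes, Gng10 and Churc1 included, was not tested.

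**Figure D5:**
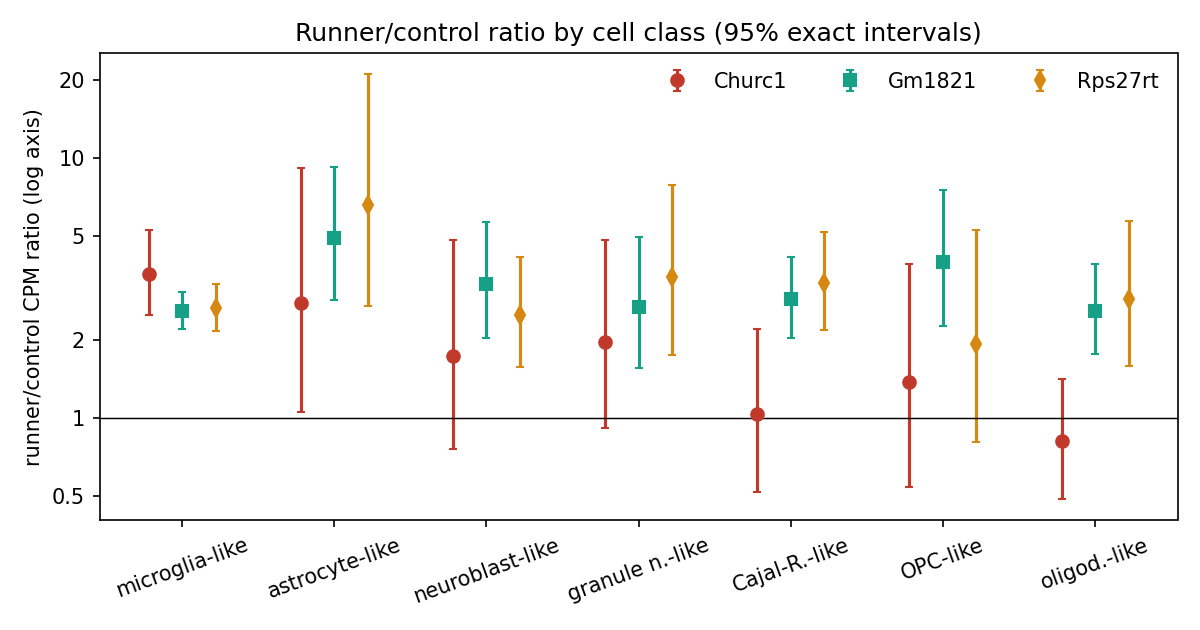
Runner/control CPM ratio of Churc1, Gm1821 and Rps27rt by cell class, on a log axis. Points are the ratio of 2 libraries and lines are exact 95% intervals; Churc1 falls to 0.812 in oligodendrocyte-like cells, while Gm1821 and Rps27rt stay above 1 in each of the 7 classes.

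Being listed in 1 table only was not the pattern of the 3 genes. Genes listed for 1 library and no other numbered 1385 in runner, 142 in aged and 247 in control. None of the runner ones had 100 or more UMIs, the highest being S100a8 with 78, and the same held for control. In aged, 2 of them did, the immunoglobulin genes Igkc with 1315 and Igha with 480.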

How the data were processed

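Gene expression was measured in 3 dentate gyrus libraries, 1 per group, made with 10x Genomics 3' version 2 chemistry per the labels' protocols. The authors deposited raw UMI counts per gene symbol and barcode. Cell Ranger 2.1.1, Seurat 3.1.0 and GRCm38 are named in the submitters' processing notes. The annotation release and the cell calling were not given in the sources used here.

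Barcodes with at least 200 genes and under 10% mt- UMIs were kept, and Scrublet calls (expected rate 0.05) removed 6 runner, 2 aged and 2 control barcodes. The libraries were clustered together without the 3 genes and without batch correction (2000 variable genes, 30 components, 15 neighbours, Leiden resolution 1, seed 1) with Python 3.11.15, Scanpy 1.11.5, NumPy 2.4.6, SciPy 1.17.1, pandas 2.3.3, scikit-learn 1.9.0, leidenalg 0.10.2 and igraph 0.11.9. Names came from 22 marker lists, by thresholds set after seeing the data, and each name means "like" that type. The granule neuron-like cluster had 9 detected markers, none among its 10 leading genes.

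UMIs were summed per class and library and divided by the class total to give CPM. Ratios have exact conditional binomial intervals and levels exact Poisson intervals, at 95%. The interval code was checked on simulated counts. No test was run, because each group is 1 library. Ratios over all genes had 0.5 added to each count and at least 20 UMIs. Genes were named by rule: the 3 genes, members of 9 gene lists, chromosomal neighbours, the 10 genes most like them, and genes listed in 1 table. The 3 genes and all lists were chosen with earlier results of these data known.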

Additional observations from a re-analysis of the deposited data

How the results depend on the processing

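No paired analysis was possible because each group is 1 library and the labels carry no shared replicate numbers. In microglia-like cells, 72 of 72 recomputed values of the 3 genes moved by less than their counting interval: runner/control ranged from 10.2 to 19.9 for Gdpd3, 4.21 to 5.20 for Gng10 and 2.89 to 3.74 for Churc1. Over all cells used, 82 values did so and 6 moved further. With only barcodes of 10% or more mitochondrial UMIs, runner/control was 2.58 for Gdpd3 and 1.36 for Churc1, runner/aged 1.37 for Churc1, and aged/control 2.86 for Gdpd3 and 1.13 for Gng10. With no mitochondrial filter, runner/aged for Gng10 was 2.43. Under 5% mitochondrial UMIs, Gdpd3 rested on 1 control UMI, with ratios of 21.8 for runner/control and 24.9 for aged/control. Of 2 random thinnings over all cells used, 1 left control with 0 Gdpd3 UMIs, against 48 in runner and 11 in aged, and gave no ratio to control, and the other left 43 in runner, 15 in aged and 3 in control. Ratios near 1 crossed it: Gdpd3 runner/aged over all cells (0.819 to 1.36), Churc1 aged/control over all cells (0.972 to 1.13), Churc1 runner/control in oligodendrocyte-like (0.810 to 1.07) and Cajal-Retzius-like cells (0.998 to 1.13), and Churc1 runner/aged in astrocyte-like (0.946 to 1.24) and oligodendrocyte precursor-like cells (0.960 to 1.22). The cause of these moves was not tested.

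The share of genes 2-fold or more higher depends on the minimum. With at least 50 UMIs, runner/control was 4.00% in all cells used and 2.06% in microglia-like cells, runner/aged 2.19% in microglia-like cells, and aged/control 1.56% and 1.57%. At 3-fold or more, runner/control was 1.59% and 1.10%, runner/aged 2.53% and 1.01%, and aged/control 0.385% and 0.619%, each in all cells used and in microglia-like cells. With at least 10 UMIs in a class, 3 of the 10 most like genes were kept. Depth limits Gdpd3 and Gng10 outside microglia-like cells, where single classes held too few UMIs to compare.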
